A study of Mus musculus with 24 samples.

Results

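The contractile genes of smooth muscle and myofibroblasts described here are *Acta2*, *Actg2*, *Tagln*, *Cnn1*, *Myl9*, *Tpm1*, *Tpm2*, *Myh11* and *Des*. They were chosen by symbol, and all 9 were found among the 55335 genes of each of 24 RNASeq libraries of primary osteoblast (OB) cultures. OBs came from the parietal bones of pups that were either wild type (WT) or heterozygous (Het) for G610C, a Gly to Cys change in the triple helix of the procollagen α2(I) chain encoded by *Col1a2*. The 6 groups were both genotypes under osteogenic differentiation on days 8, 14 and 21, and each group had 4 libraries of polyadenylated RNA. The mice had a C57BL/6J background, the pups were 4 to 5 days old, and a culture held the mixed cells of pups sharing a genotype, so wells of one preparation do not sample the spread between animals. The study describes 2 experiments with other litters and seeding densities, and the labels do not place the libraries in them. Cells of the second were first grown for 4 days at 5% oxygen. The wells it describes per genotype and day are fewer than the 4 libraries of a group here.

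Smooth muscle cells contract when myosin, switched on by phosphorylation of its regulatory light chain, pulls on actin filaments. *Acta2* and *Actg2* encode the vascular and enteric smooth muscle actins, *Myh11* the smooth muscle myosin heavy chain and *Myl9* a regulatory light chain. *Tpm1* and *Tpm2* encode tropomyosins that lie along the filament, *Cnn1* the actin-binding calponin 1, *Tagln* the actin-binding protein transgelin (SM22α), and *Des* the muscle intermediate filament protein desmin. Many of these genes are transcribed through serum response factor (SRF), which binds the CArG box together with coactivators of the myocardin family. Myofibroblasts are fibroblast-like cells that build stress fibres with *Acta2* actin, usually without *Myh11*, a marker of mature smooth muscle, and mesenchymal cells commonly take on this state in culture.

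Total counts ranged from 17140202 to 59734231 per library. The 6 libraries of replicate 1 were the shallowest (17140202 to 25825762), and several results are also given within replicate 1 and within the other 3 replicates. OB genes checked the label: the summed TPM (counts corrected for gene length and library total) of 8 OB genes was 4279 to 11439 in WT cultures on day 8 and 46889 to 50282 on day 21. Genes that mark other cell types had counts too. The summed TPM of 5 cartilage genes was 3864 to 6219.7 in WT cultures on day 8 and 605 to 1167 on day 21, and that of 8 endothelial genes lay between 5.08 and 14.9 in all groups. Of the endothelial sum, *Erg* had group means of 5.37 to 11.7 TPM, *Pecam1* of 0.0977 to 0.222 TPM, and the defining endothelial genes *Cdh5*, *Emcn*, *Cldn5* and *Tie1* at most 13, 2, 2 and 3 counts in a library. Fewer cells of a type and less RNA per cell cannot be told apart in bulk RNA.

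Compared per gene length, the 9 genes fell into tiers. *Acta2* was highest in every group, with group means of 1793 to 3075 TPM, and it ranked 28 to 68 among all genes in single libraries. The group means of the cytoplasmic β-actin gene *Actb* were 1772 to 2347 TPM. *Tagln* (701 to 1468 TPM) and *Myl9* (734 to 1058 TPM) came next. *Tagln* lay above *Myl9* without overlap on day 8 in both genotypes, and the libraries of these genes overlapped in the other 4 groups.

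*Tpm1* (329 to 579.9 TPM) lay above *Tpm2* (244 to 443 TPM), with overlap in Het cultures on day 8 alone. *Actg2* (66.9 to 185 TPM) and *Cnn1* (69.8 to 184 TPM) overlapped in all 6 groups and had no order. *Myh11* (1.85 to 5.27 TPM, 79 to 848 counts) and *Des* (0.636 to 8.09 TPM, 25 to 694 counts) formed the lowest tier and changed places: in both genotypes *Des* was above *Myh11* on day 8 and below it on days 14 and 21, without overlap in any group. The 9 genes together summed to 5483 to 7181 TPM in WT cultures on day 8, 3888 to 4043 on day 14 and 4391 to 6069 on day 21, and *Acta2* made up 40.6% to 47.2% of the sum over all libraries.

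**Figure D1:**
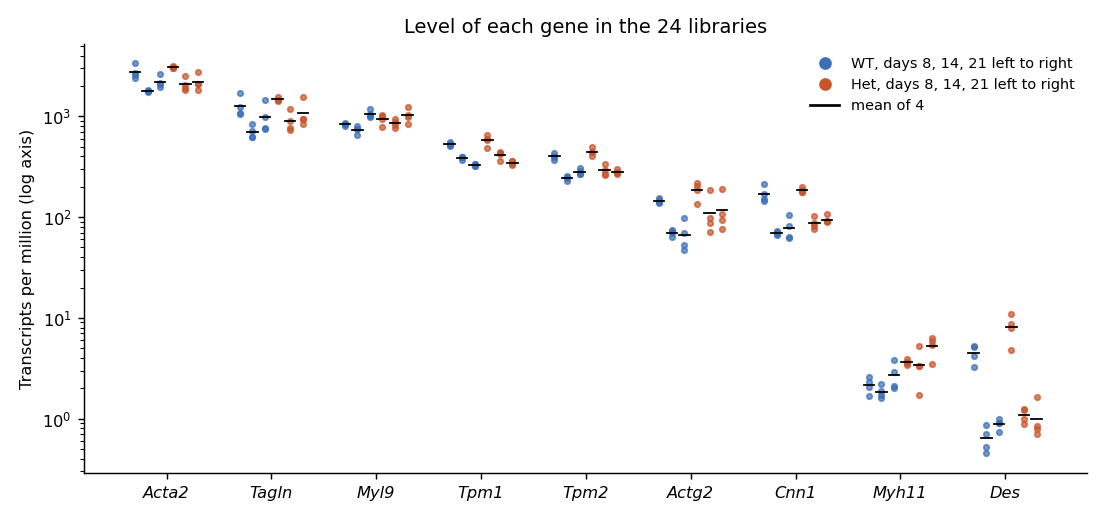
Level of each gene in TPM (vertical log axis) in the 24 libraries, with WT in blue and Het in orange, days 8, 14 and 21 from left to right, points for libraries and black bars for the mean of 4. *Acta2* stands at the top with group means of 1793 to 3075 TPM, and *Myh11* and *Des* at the bottom with group means of 1.85 to 5.27 and 0.636 to 8.09 TPM.

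Several defining genes of striated muscle were at or near 0, while the 29 striated muscle genes together summed to 24.8 to 45.9 TPM over all libraries. *Myod1* and *Myog*, which encode skeletal muscle transcription factors, had at most 1 and 3 counts in a library, the muscle creatine kinase gene *Ckm* at most 3 and the cardiac actin gene *Actc1* at most 5. Skeletal muscle actin, *Acta1*, had 22 to 230 counts. *Rgs5*, a pericyte marker, had 14 to 152 counts and the endothelial *Pecam1* 4 to 36. Pericyte genes ranged widely, from at most 2 counts for *Higd1b* to 3416 to 12801 for *Pdgfrb* and 3131 to 14216 for *Cspg4*. The 10 pericyte genes summed to 183 to 1232 TPM over all libraries. This sum was uneven over its genes. Mean counts per library were 8587 for *Ndufa4l2*, 8404 for *Cspg4* and 8296 for *Pdgfrb*, against 45.4 for *Rgs5*. The sum therefore says little about *Rgs5* and *Higd1b*. *Myocd*, which encodes myocardin, the coactivator most closely tied to smooth muscle, had 2 to 16 counts, against 677 to 2320 for *Srf*.

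Overlapping genes bear on *Tagln* above all. On GRCm38 its exons lie on the minus strand of chromosome 9 between 45929619 and 45936058, and 1349 of their 1988 bases (67.9%) are shared with plus-strand exons, 1241 of them with *Gm48529* and 108 with *Pcsk7*. *Gm48529* was listed at 14298 to 53496 counts and *Tagln* at 14386 to 53910, so reads of these overlapping genes cannot be told apart here. *Pcsk7* had 600 to 2008 counts. *Des* shares 220 exon bases (5.86%) with *Gm15179*, which had 14 counts over all libraries. Of the 50-base stretches of *Acta2* transcripts, 0.326% also occur in another gene, *Actg1* among them, and for *Myh11* 0.34% do. None of the stretches of *Actg2*, *Cnn1*, *Myl9*, *Tpm1* and *Tpm2* is shared.

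Promoter windows of RefSeq (GRCm38.p6, 250 bases before to 50 after the start, along the gene's strand) were read for 6 of the 9 genes: *Acta2*, *Cnn1*, *Myl9*, *Tpm1*, *Tpm2* and *Des*. Both strands were searched for the CArG box, exact or with up to 1 mismatch, and for GGAATG, the core of the MCAT element that TEAD factors bind, which reads CATTCC on the opposite strand. The windows of 4 genes that fell after day 8 and of *Myl9*, which did not pass that test, are shown because they differ in these matches, which are in capitals.
Acta2, chr19:34255324-34255623, minus strand: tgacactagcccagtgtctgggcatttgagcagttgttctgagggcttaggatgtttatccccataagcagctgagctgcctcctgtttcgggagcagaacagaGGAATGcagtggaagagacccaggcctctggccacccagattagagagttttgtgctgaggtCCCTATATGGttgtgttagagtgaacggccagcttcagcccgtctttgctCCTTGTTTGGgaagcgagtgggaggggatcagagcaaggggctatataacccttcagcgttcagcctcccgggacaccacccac
Tpm1, chr9:67049164-67049463, minus strand: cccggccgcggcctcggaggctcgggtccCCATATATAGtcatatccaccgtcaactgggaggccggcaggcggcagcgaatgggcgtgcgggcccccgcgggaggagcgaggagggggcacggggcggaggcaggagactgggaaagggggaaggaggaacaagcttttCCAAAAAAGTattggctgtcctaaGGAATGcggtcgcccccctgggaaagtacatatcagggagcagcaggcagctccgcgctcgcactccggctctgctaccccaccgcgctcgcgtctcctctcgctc
Myl9, chr2:156775214-156775513, plus strand: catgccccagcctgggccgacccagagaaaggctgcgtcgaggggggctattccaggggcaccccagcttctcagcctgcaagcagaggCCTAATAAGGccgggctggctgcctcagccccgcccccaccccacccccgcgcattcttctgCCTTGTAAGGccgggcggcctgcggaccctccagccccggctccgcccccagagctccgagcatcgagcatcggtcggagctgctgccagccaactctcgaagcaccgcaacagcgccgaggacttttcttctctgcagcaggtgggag
Cnn1, chr9:22099003-22099302, plus strand: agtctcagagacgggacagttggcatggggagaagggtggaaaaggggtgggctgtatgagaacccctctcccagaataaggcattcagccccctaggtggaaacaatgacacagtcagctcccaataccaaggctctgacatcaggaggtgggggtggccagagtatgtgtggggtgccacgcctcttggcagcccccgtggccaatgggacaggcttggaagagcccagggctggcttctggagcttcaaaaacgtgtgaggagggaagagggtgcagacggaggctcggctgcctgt
Des, chr1:75360042-75360341, plus strand: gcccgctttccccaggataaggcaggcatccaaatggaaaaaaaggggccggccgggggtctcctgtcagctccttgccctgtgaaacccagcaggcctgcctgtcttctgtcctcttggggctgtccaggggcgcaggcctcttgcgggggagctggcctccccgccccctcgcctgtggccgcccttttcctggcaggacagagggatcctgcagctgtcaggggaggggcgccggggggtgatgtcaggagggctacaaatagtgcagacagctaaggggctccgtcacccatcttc

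In the *Acta2* window GGAATG had its first base at −146 from the start, and CArG-like sequences stood at −84 (CCCTATATGG) and −34 (CCTTGTTTGG), each with 1 mismatch. *Tpm1* had CCATATATAG at −221, CCAAAAAAGT at −80 and GGAATG at −56. *Myl9* held the single exact CArG box of the 6 windows, CCTAATAAGG at −161, and CCTTGTAAGG at −99. The letters were not found in the windows of *Cnn1*, *Des* and *Tpm2*. An exact CArG box was in 1.64% of 32544 promoter windows, one with up to 1 mismatch in 21.1% and GGAATG in 14.6%. A match is a description of letters, not of binding.

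From day 8 to day 14 the contractile genes fell. Over both genotypes 7 of the 9 were lower on day 14 at an adjusted p under 0.05, 0 were higher, and *Myl9* and *Myh11* did not pass. Of the 20434 genes tested 47.6% were called, 13.4% as lower and 34.2% as higher. The median log2 fold change was −0.45 over the 9 genes and 0.13 over all genes tested. Here and below, the relative quantity (RQ) is a count over the geometric mean of the housekeeping counts (*Actb*, *Actg1*, *Sdha* and *Mrfap1*) of that library, and log2 fold changes on this scale and adjusted p-values come from edgeR's quasi-likelihood test with Benjamini-Hochberg adjustment over all tested genes.

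*Des*, the desmin gene, fell furthest. In WT replicates 1 to 4 its RQ was 0.0129, 0.0106, 0.00791 and 0.0123 on day 8 and 0.00228, 0.00122, 0.00143 and 0.00231 on day 14. In Het replicates it was 0.0117, 0.0178, 0.0255 and 0.0197 on day 8 and 0.00317, 0.00283, 0.00343 and 0.00234 on day 14. The days did not overlap in either genotype, and the mean fell to 0.166 of its day 8 value in WT and to 0.157 in Het cultures (log2 fold change −2.64, SE 0.21, adjusted p = 1.41e-09). The day 14 libraries held only 25 to 94 counts of *Des*.

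*Cnn1*, the calponin gene, came next. Its RQ in WT replicates was 0.381, 0.279, 0.257 and 0.293 on day 8 and 0.168, 0.130, 0.135 and 0.144 on day 14. In Het replicates it was 0.356, 0.288, 0.302 and 0.305 and then 0.192, 0.160, 0.164 and 0.166. Every day 14 library was below every day 8 library, and the day 14 mean was 0.478 of the day 8 mean in WT and 0.544 in Het cultures (log2 fold change −0.97, SE 0.12, adjusted p = 7.25e-07).

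The actin genes fell less. *Acta2* was at an RQ of 4.79, 3.57, 3.65 and 3.77 in WT replicates on day 8 and at 3.40, 2.77, 2.92 and 2.82 on day 14. In Het replicates it was at 4.58, 3.97, 4.20 and 3.99 and then at 3.82, 3.43, 2.90 and 2.93. Day 14 lay below day 8 without overlap within each genotype (log2 fold change −0.38, SE 0.11, adjusted p = 0.00653). *Actg2* went from 0.142 to 0.157 to 0.0720 to 0.0993 in WT cultures, without overlap. In Het cultures it went from 0.139 to 0.210 to 0.0768 to 0.219, where replicate 2 on day 14 stood above every day 8 library (log2 fold change −0.67, SE 0.21, adjusted p = 0.0119).

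Among the actin-binding genes, *Tagln* fell by 0.57 on the log2 scale (SE 0.18, adjusted p = 0.0138). Its WT replicates were at 2.21, 1.42, 1.39 and 1.55 on day 8 and at 1.44, 0.890, 0.892 and 1.02 on day 14, so replicate 1 was highest on both days and the days overlapped. *Tpm2* fell by 0.45 on the log2 scale (SE 0.07, adjusted p = 1.8e-05), from 0.726 to 0.891 to 0.514 to 0.682 over both genotypes, without overlap. *Tpm1* fell by 0.26 on the log2 scale (SE 0.05, adjusted p = 0.000166). The calls of *Acta2*, *Actg2* and *Tagln* were lost without the libraries of replicate 3 (−0.37, −0.53 and −0.53) or of replicate 4 (−0.37, −0.64 and −0.54), and held without any single library.

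*Myl9* and *Myh11* did not pass. *Myl9*, the light chain gene, was at 0.618 to 0.659 in WT cultures on day 8 and 0.619 to 0.669 on day 14 (log2 fold change over both genotypes 0.05, 95% confidence interval −0.13 to 0.22). *Myh11* had a log2 fold change of 0.07 (−0.31 to 0.44). Both values turned negative when TMM (−0.07 and −0.05), DESeq2's size factors (−0.08 and −0.05) or the total count (−0.24 and −0.22) set the scale, and with the total count *Myl9* was called lower (adjusted p = 0.0111). The median over all genes was then 0.01, 0.01 and −0.15. Genes called higher and lower numbered 6995 and 2741 on the housekeeping scale, 5339 and 4802 with TMM, 5241 and 4934 with size factors, and 3596 and 7973 with the total count. The other 7 genes were called lower on each of these scales.

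**Figure D2:**
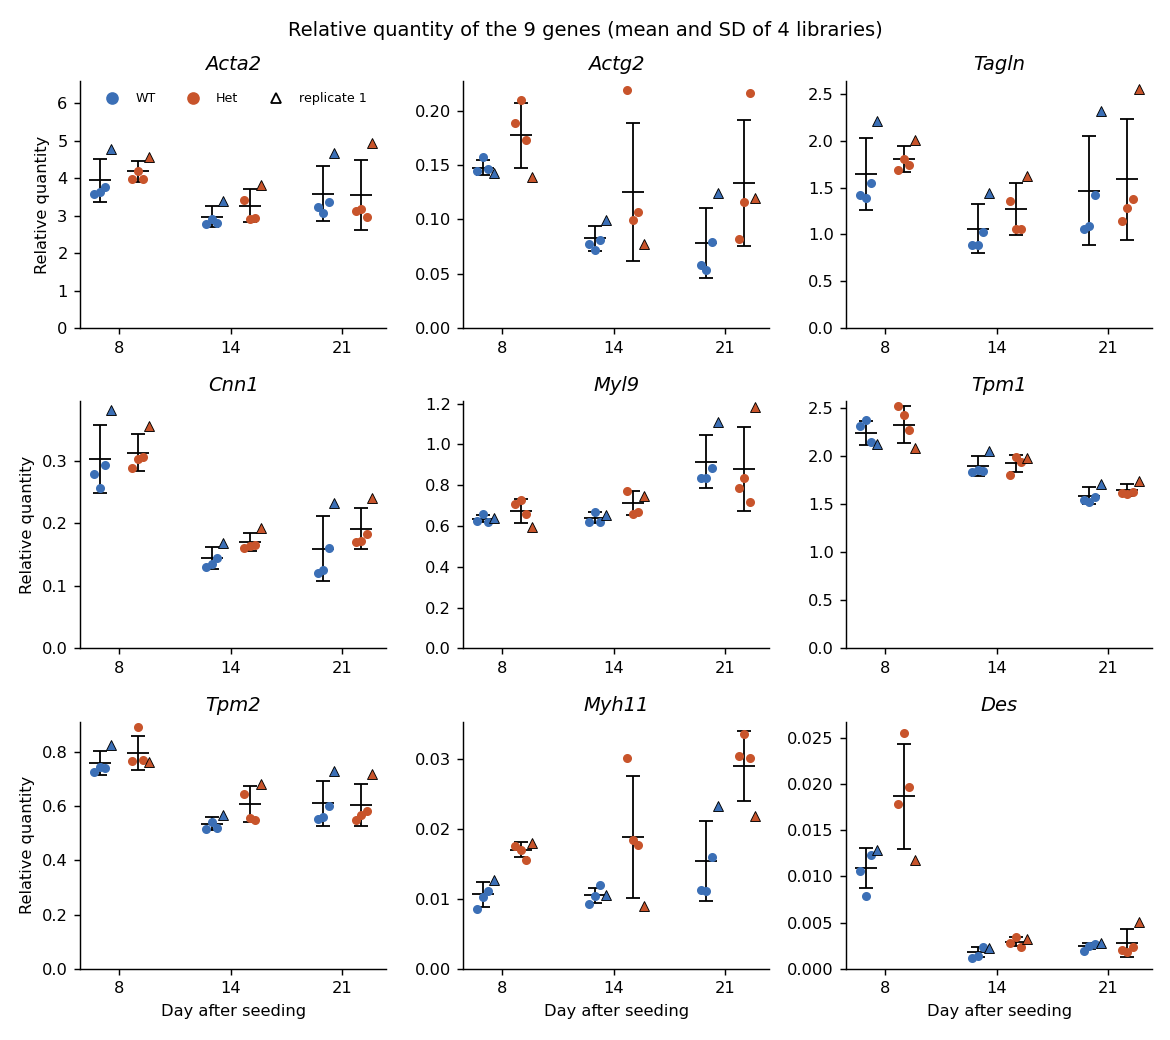
RQ of the 9 genes (vertical axes from 0) by day after seeding, with WT in blue and Het in orange, circles for replicates 2 to 4, triangles for replicate 1 and black bars for mean and SD of 4. *Des* and *Cnn1* drop after day 8, and the Het circles of *Myh11* lie above the WT circles on all days while its triangles do not on days 14 and 21.

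Genes of other cell types and states moved over the same days. All 10 cell cycle genes were lower on day 14 (median log2 fold change −0.62), and all 8 OB genes (median 3.06) and all 6 macrophage genes (median 3.14) were higher. The summed cartilage genes stood at 1073 to 3289.8 TPM in WT cultures on day 14, with *Sox9*, the cartilage transcription factor gene, the single one of the 5 called (log2 fold change −1.13, SE 0.22, adjusted p = 0.000216). Their part in the fall of the contractile genes was not tested.

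The non-muscle relatives of these genes did not share a direction: of 15, 3 rose and 5 fell from day 8 to day 14, with a median log2 fold change of −0.11. Over all genes tested, 34.2% were called higher and 13.4% lower at this step. Of the calponins, *Cnn2* rose by 0.20 (SE 0.05, adjusted p = 0.0037) and *Cnn3* fell by 0.43 on the log2 scale (SE 0.06, adjusted p = 5.39e-06). *Tagln2*, a transgelin of non-muscle cells, rose by 0.22 (SE 0.07, adjusted p = 0.0129). Among tropomyosins *Tpm3* fell by 0.30 on the log2 scale (adjusted p = 0.000437) and *Tpm4* did not pass (−0.13, adjusted p = 0.185). Of the non-muscle myosin heavy chains *Myh9* fell by 0.24 on the log2 scale (adjusted p = 0.0188) and *Myh10* did not pass (−0.11, adjusted p = 0.324). *Vim*, which encodes the mesenchymal intermediate filament protein vimentin, fell by 0.40 on the log2 scale (adjusted p = 0.00962). *Actb* (−0.07) and *Actg1* (−0.05), which belong to the housekeeping mean, and the light chain gene *Myl6* (0.06) did not pass.

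**Figure D3:**
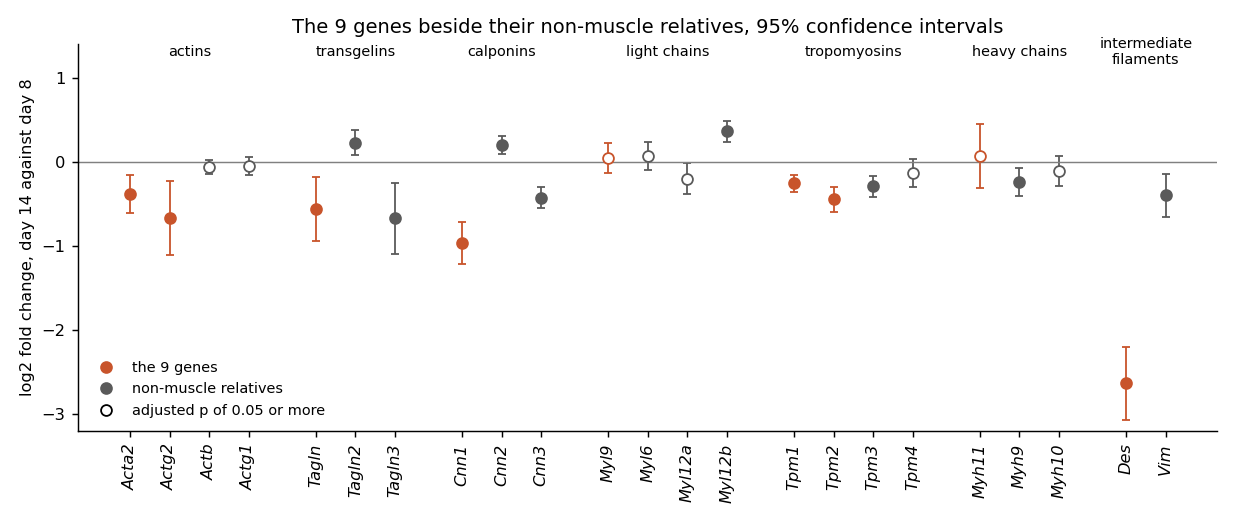
Log2 fold change from day 8 to day 14 (vertical axis) of the 9 genes in orange beside non-muscle genes of the same families in grey, with 95% confidence intervals and filled points for an adjusted p under 0.05; *Myh14*, with a mean of 14.3 counts, is not drawn. *Cnn1* (−0.97) and *Tagln* (−0.57) lie below 0 while *Cnn2* (0.20) and *Tagln2* (0.22) lie above it.

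From day 14 to day 21 the 9 genes went different ways. *Myl9* and *Myh11* rose, *Tpm1* fell, and the other 6 did not pass, where 18% of all tested genes were called, 12.1% as higher and 5.89% as lower. *Myl9* in WT replicates went from 0.656, 0.619, 0.669 and 0.619 to 1.11, 0.834, 0.836 and 0.885, without overlap. In Het replicates it went from 0.750, 0.773, 0.657 and 0.669 to 1.18, 0.786, 0.837 and 0.716, with overlap (log2 fold change 0.41, SE 0.09, adjusted p = 0.00178). The ratio of day 21 to day 14 was 1.69 in WT and 1.58 in Het cultures within replicate 1, and 1.34 and 1.11 within replicates 2 to 4.

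*Tpm1*, the tropomyosin 1 gene, fell at both steps. Its WT replicates were at 2.13, 2.31, 2.37 and 2.14 on day 8, 2.05, 1.83, 1.85 and 1.84 on day 14 and 1.71, 1.54, 1.52 and 1.57 on day 21. Successive days did not overlap in either genotype, and the second step had a log2 fold change of −0.24 (SE 0.05, adjusted p = 0.00135). *Myh11* rose by 0.58 (SE 0.18, adjusted p = 0.0292). This call was lost with the compared groups alone (0.58, adjusted p = 0.066), without replicate 3 (0.60) or 4 (0.58), and without any one of WT day 21 replicates 1 and 4, WT day 14 replicate 2, Het day 21 replicate 3 and Het day 14 replicate 4 (0.45, 0.57, 0.55, 0.54 and 0.57).

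*Acta2* (0.20, adjusted p = 0.242) and *Tagln* (0.39, adjusted p = 0.149) did not pass, but passed with the replicate number as a block (0.18, adjusted p = 0.047, and 0.35, adjusted p = 0.00878). The day 21 to day 14 ratio of *Tagln* within replicate 1 was 1.61 in WT and 1.57 in Het cultures, against 1.27 and 1.10 within replicates 2 to 4, and without replicate 1 *Tagln* passed (0.24). *Cnn1* (0.15), *Tpm2* (0.09), *Des* (0.17) and *Actg2* (0.01) did not pass. On day 21 the mean RQ of *Des* was 0.226 of its day 8 value in WT and 0.151 in Het cultures.

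**Figure D4:**
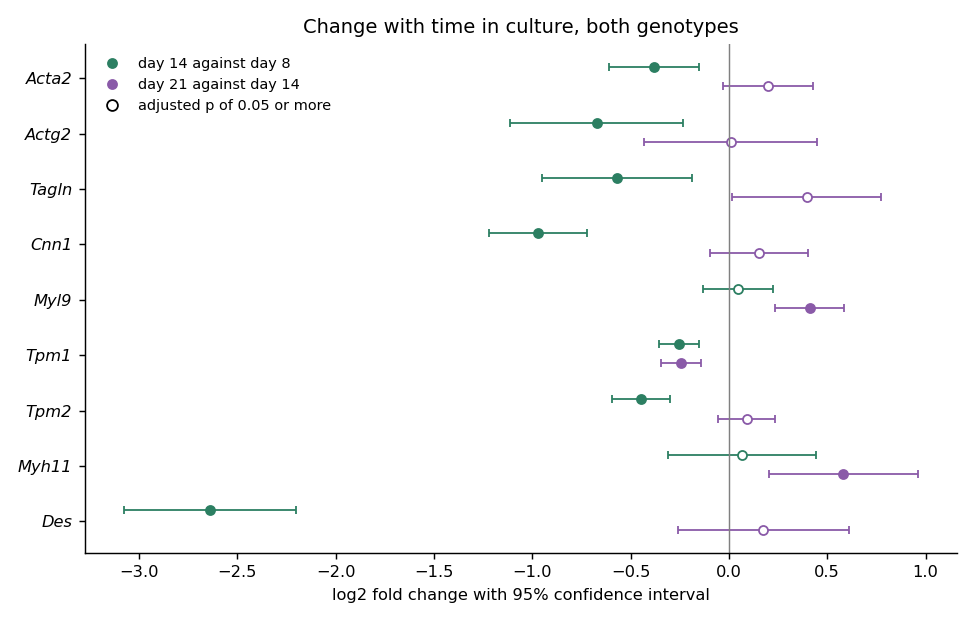
Log2 fold change with 95% confidence interval (horizontal axis) of the 9 genes from day 8 to day 14 in green and from day 14 to day 21 in purple, over both genotypes, with filled points for an adjusted p under 0.05. The 7 filled green points lie below 0, with *Des* at −2.64, and the filled purple points are *Myl9* (0.41), *Tpm1* (−0.24) and *Myh11* (0.58).

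Between genotypes, *Myh11* and *Actg2* were higher in Het than in WT cultures over days 14 and 21, and the other 7 did not pass. Of all tested genes 15.2% were called in this comparison, 7.15% as higher and 8.01% as lower. The median log2 fold change was 0.19 over the 9 genes and −0.05 over all genes. On single days none of the 9 passed, where 0.631% of all genes were called on day 8 (0.318% higher, 0.313% lower), 3.45% on day 14 (1.93% higher, 1.51% lower) and 0.910% on day 21 (0.651% higher, 0.259% lower).

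*Myh11*, the smooth muscle myosin gene, differed most (0.88, SE 0.18, adjusted p = 0.00398). On day 8 its RQ was 0.0128, 0.00855, 0.0102 and 0.0112 in WT and 0.0180, 0.0176, 0.0170 and 0.0156 in Het replicates, without overlap. On day 14 it was 0.0105, 0.00928, 0.0104 and 0.0119 in WT and 0.00895, 0.0302, 0.0184 and 0.0178 in Het replicates. On day 21 it was 0.0234, 0.0113, 0.0111 and 0.0160 against 0.0219, 0.0304, 0.0337 and 0.0302. In replicates 2 to 4 Het was higher on every day, with ratios of mean RQ of 1.68, 2.10 and 2.46. In replicate 1 Het was higher on day 8 (ratio 1.41) and lower on days 14 and 21 (0.852 and 0.937).

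On single days *Myh11* had log2 fold changes of 0.68 (adjusted p = 0.317), 0.84 (adjusted p = 0.0685) and 0.92 (adjusted p = 0.0883) on days 8, 14 and 21. The day 21 value passed with the replicate number as a block (0.94, adjusted p = 0.0449), and all 3 passed without replicate 1 (0.75, 1.05 and 1.29). Scaled by size factors (0.92 and 0.98) or the total count (0.94 and 1.02), the values of days 14 and 21 passed, and with TMM that of day 14 did (0.93). The call over days 14 and 21 held without any single library and was lost without replicate 2, 3 or 4 (0.62, 0.78 and 0.93). A two-sided exact permutation test of the RQ of *Myh11* in 8 Het and 8 WT libraries, 1 of 9 such tests, gave a ratio of 1.84 and p = 0.00963. This p was not adjusted for the 9 tests, and genotype was shuffled without regard to day or replicate.

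*Actg2*, the enteric actin gene, was higher in Het cultures with a wide spread (0.69, SE 0.21, adjusted p = 0.0325). On day 14 its RQ was 0.0993, 0.0770, 0.0720 and 0.0809 in WT and 0.0768, 0.219, 0.0992 and 0.107 in Het replicates. On day 21 it was 0.124, 0.0580, 0.0532 and 0.0787 against 0.119, 0.0818, 0.116 and 0.216. One Het library stood highest on each day, replicate 2 on day 14 and replicate 4 on day 21, and in replicate 1 Het was below WT on both days (ratios 0.774 and 0.964).

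The *Actg2* call was lost without Het day 14 replicate 2 (0.49, adjusted p = 0.0905) and without Het day 21 replicate 4 (0.52, adjusted p = 0.0993). It was also lost without any one of WT replicates 2, 3 and 4 on day 14 (0.68, 0.66 and 0.69) or day 21 (0.63, 0.62 and 0.69), without replicate 2, 3 or 4 altogether (0.50, 0.67 and 0.55) and with the compared groups alone (0.69, adjusted p = 0.07). The two-sided exact permutation test of its RQ, likewise shuffled across days and replicates, gave a ratio of 1.61 and an unadjusted p = 0.025. On day 8 the log2 fold change of *Actg2* was 0.27 (95% confidence interval −0.35 to 0.88). Without replicate 1 the values of day 14 (0.87) and day 21 (1.12) passed on their own.

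*Cnn1* was higher in Het cultures in 4 of 4 same-numbered pairs on day 14 and in 4 of 4 on day 21, by a small margin that did not pass (0.25, adjusted p = 0.161). Like numbers were not shown to pair libraries. It passed with the replicate number as a block (0.27, adjusted p = 0.00475), with TMM (0.31), size factors (0.31) or the total count (0.34), without replicate 1 (0.31) and without WT day 21 replicate 1 (0.37). Without replicate 1 it also passed on day 14 (0.26) and day 21 (0.37) alone. The Het to WT ratio of *Cnn1* on days 14 and 21 was 1.14 and 1.03 within replicate 1 and 1.20 and 1.29 within replicates 2 to 4.

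*Des* did not pass on day 8 (0.78, adjusted p = 0.249), day 14 (0.71, adjusted p = 0.169) or day 21 (0.15, adjusted p = 0.883). On day 14 its Het libraries (0.00234 to 0.00343) lay above its WT libraries (0.00122 to 0.00231) without overlap. These rest on 28 to 94 counts in Het and 25 to 65 in WT libraries, and the gap from 0.00231 to 0.00234 is within counting error. On day 8 the Het to WT ratio was 0.913 within replicate 1 and 2.05 within replicates 2 to 4, and the day 8 value passed without replicate 1 (1.03) and without Het day 8 replicate 1 (0.95). The day 14 value also passed without replicate 1 (0.79).

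The 5 most abundant genes did not pass. The 95% confidence interval of the Het to WT log2 fold change over days 14 and 21 was −0.17 to 0.29 for *Acta2*, −0.19 to 0.57 for *Tagln*, −0.13 to 0.22 for *Myl9*, −0.06 to 0.14 for *Tpm1* and −0.06 to 0.23 for *Tpm2*. On day 21 *Acta2* was at 4.68, 3.24, 3.07 and 3.38 in WT and at 4.95, 3.13, 3.19 and 2.96 in Het replicates, with replicate 1 highest in both.

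**Figure D5:**
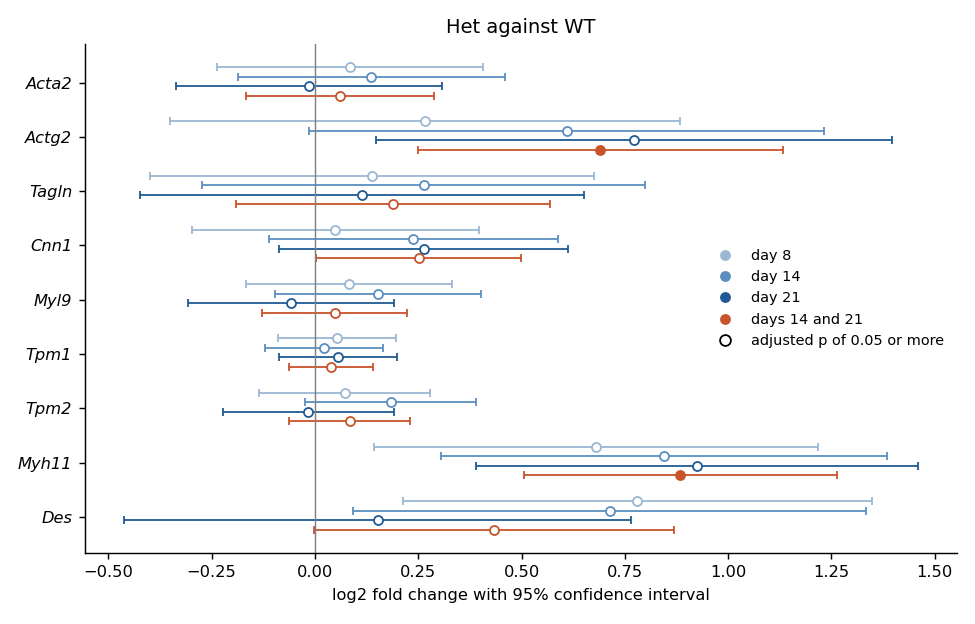
Log2 fold change of Het against WT with 95% confidence interval (horizontal axis) on days 8, 14 and 21 in blues and over days 14 and 21 in orange, with filled points for an adjusted p under 0.05. The filled points are *Myh11* (0.88) and *Actg2* (0.69) over days 14 and 21.

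The Het effect was not shown to differ between days for any of the 9. Its change from day 8 to the mean of days 14 and 21 was called for 0.171% of all genes (0.166% higher, 0.00489% lower) and for 0 of the 9, with a value of 0.20 for *Myh11* (95% confidence interval −0.45 to 0.86), 0.42 for *Actg2* (−0.33 to 1.18) and −0.35 for *Des* (−1.06 to 0.37). For its change from day 14 to day 21 edgeR called 0 genes, with 452 at an unadjusted p under 0.05, and DESeq2 called 0.

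Genes of other cell types differed between the genotypes over the same days. All 6 macrophage genes were higher in Het cultures over days 14 and 21 (median log2 fold change 1.05), among them *C1qa* (1.18, SE 0.26, adjusted p = 0.00583), which encodes a complement component, and *Cd68* (0.92, SE 0.22, adjusted p = 0.00881). Their summed level in replicates 2 to 4 was 1192 to 2043 TPM in WT and 5819.6 to 6212 TPM in Het cultures on day 14 and 5156 to 6006 against 10337 to 15969 TPM on day 21. In replicate 1 it was 3278 TPM in WT and 2717 TPM in Het on day 14 and 4725 against 6086 TPM on day 21. In replicates 2 to 4 Het was thus above WT without overlap on both days, and in replicate 1 it was below WT on day 14 and above it on day 21.

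The summed cartilage genes stood lower in Het cultures in replicates 2 to 4, at 1073 to 2305 TPM in WT and 230.1 to 453 TPM in Het on day 14 and at 605 to 950.4 against 186 to 247 TPM on day 21, without overlap. In replicate 1 the sums were 3289.8 and 4105 TPM on day 14 and 1167 and 1152 TPM on day 21. Of the 5 cartilage genes only *Sox9* was called over days 14 and 21 (−0.70, adjusted p = 0.0372). OB genes summed to 46889 to 50282 TPM in WT and 28048 to 39804 TPM in Het cultures on day 21, without overlap, and to medians of 41726 and 27667 TPM on day 14, with overlap. *Col1a1* made up most of the sum on day 21, with group means of 31354 TPM in WT and 25586 TPM in Het cultures. It did not pass over days 14 and 21 (−0.39, adjusted p = 0.159). Of the 8 OB genes 2 were called lower in Het over days 14 and 21, *Bglap*, which encodes osteocalcin (−1.54, adjusted p = 0.00799), and *Runx2*, the OB transcription factor gene (−0.39, adjusted p = 0.041). Of 9 pericyte genes tested 0 were called. Of 5 endothelial genes tested 1 was called, *Kdr*, a receptor gene that was higher in Het (1.00, adjusted p = 0.0116, 2 to 102 counts). *Myod1* and *Myog* had 0 to 3 counts in both genotypes. The part of macrophage, cartilage, OB and endothelial RNA in the *Myh11* and *Actg2* differences was not tested.

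A list of other contractile genes, not all of them particular to smooth muscle, had no common direction. For the counts of this and the lists that follow, the shares over all genes were 34.2% higher and 13.4% lower at the first step and 12.1% higher and 5.89% lower at the second. Of 22 tested, 8 rose and 7 fell from day 8 to day 14 (median log2 fold change −0.01), and 7 rose and 2 fell from day 14 to day 21. *Mylk*, which encodes the kinase of the regulatory light chain, rose by 0.87 at the first step (SE 0.20, adjusted p = 0.00124). *Smtn*, encoding smoothelin, rose by 0.22 (adjusted p = 0.00154) and then fell by 0.17 on the log2 scale (adjusted p = 0.0251). *Cald1*, encoding caldesmon, fell by 0.18 on the log2 scale at the first step (adjusted p = 0.0123). *Lmod1*, encoding the actin nucleator leiomodin 1, had 0.02 at the first step and rose by 0.45 at the next (adjusted p = 0.00209). The largest changes from day 8 to day 14 among genes averaging 50 counts or more were in *Myom1* (2.37), *Synm* (1.38), *Csrp2* (−0.96) and *Hspb6* (−0.91). In Het cultures over days 14 and 21, *Csrp2* was higher (0.48, adjusted p = 0.0185) and *Smtn* (−0.29, adjusted p = 0.002) and *Synm* (−0.41, adjusted p = 0.0491) were lower.

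Of 29 striated muscle genes 16 had counts enough to be tested, and 4 of these rose and 2 fell from day 8 to day 14. *Acta1*, the skeletal relative of *Acta2*, fell by 1.69 on the log2 scale (SE 0.26, adjusted p = 1.13e-05), from 136 to 230 counts on day 8 to 23 to 81 on day 14. *Tnnt3* (−0.81) fell too, and *Actn3* (1.23) and *Mb* (0.40) rose.

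Of 21 genes listed as regulators around SRF, the myocardin family and YAP, 6 rose and 3 fell from day 8 to day 14, shares near those over all genes. Not all of them act through CArG or MCAT sites. *Srf* (−0.02), *Mrtfb* (−0.06), *Yap1* (0.01) and *Myocd* (−0.54) did not pass. *Mrtfa*, which encodes a coactivator of SRF that responds to actin polymerization, fell by 0.34 on the log2 scale (adjusted p = 0.000152), and *Wwtr1*, encoding the YAP relative TAZ, rose by 0.43 (adjusted p = 4.47e-06). *Tead1* fell by 0.57 on the log2 scale (SE 0.07, adjusted p = 8.56e-07). *Klf4*, whose product represses smooth muscle genes among other roles, rose by 2.85 (SE 0.16, adjusted p = 1.07e-11), *Mef2c* by 2.85 and *Fhl1* by 1.35. In Het cultures over days 14 and 21, *Tead4* (−0.68) and *Elk1* (−0.22) were lower and *Tead2* (0.20) higher, while *Srf* (−0.02) and *Myocd* (−0.08) did not pass.

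Of 15 targets of SRF and YAP outside the contractile apparatus, 4 rose and 3 fell at the first step. *Ankrd1* (−1.10) and *Ccn1* (−0.63), known YAP targets, fell, and *Ccn2* did not pass (−0.94, adjusted p = 0.06). The immediate early genes *Fos* (0.73) and *Ier2* (0.53) rose. In Het cultures over days 14 and 21, *Ier2* (0.60), *Fos* (0.55), *Junb* (0.40) and *Mcl1* (0.23) were higher, and *Ccn2* did not pass (−0.65, adjusted p = 0.294).

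Transforming growth factor β (TGFβ) is a well known inducer of *Acta2* in fibroblasts. Of 17 genes of its pathway, 4 rose and 8 fell from day 8 to day 14. The ligand gene *Tgfb1* rose by 1.81 (SE 0.09, adjusted p = 1.93e-12) and *Tgfb2* by 0.27 (adjusted p = 0.0218), while *Tgfb3* did not pass (0.16). The target gene *Tgfbi* (−1.27) fell, as did *Ltbp1* (−1.80), whose product holds latent TGFβ in the matrix. From day 14 to day 21 5 rose and 0 fell, led by *Ltbp2* (0.54) and the receptor gene *Tgfbr1* (0.52). Over days 14 and 21 *Tgfb2* (−0.50, adjusted p = 0.0022) and *Tgfb1* (−0.26, adjusted p = 0.0492) were lower and *Tgfbi* (0.46, adjusted p = 0.0492) higher in Het cultures.

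Of 15 matrix and surface genes of myofibroblasts 9 were higher on day 14, where 34.2% of all genes were, including *Fap* (2.04), *Postn* (1.07) and *Thy1* (0.96), and 1, *Fn1* (−1.06), was lower. These calls are on the housekeeping scale. In TPM, which follows the library total, the summed level of the 15 genes was lower on day 14, without overlap. It went from 12817 to 14954 to 8265 to 10253 TPM in WT cultures. In Het cultures it went from 12701 to 15268 to 9255 to 9799 TPM. All 4 housekeeping genes also had lower group means in TPM on day 14 in both genotypes, with *Actb* at 2146 and then 1772 TPM in WT. The part of the scale and of single abundant genes in the lower sum was not tested. *Col1a1*, which was counted among the OB genes and not among these 15, rose by 1.84 (SE 0.19, adjusted p = 5.48e-08). *Fap* (−0.80) and *Pdgfra* (−0.40) were lower in Het cultures over days 14 and 21. Of 9 pericyte genes tested, 5 rose and 1 fell from day 8 to day 14, led by *Cox4i2* (3.52) and *Ndufa4l2* (2.96), while *Rgs5* did not pass (−1.03, adjusted p = 0.0607).

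Over the 24 libraries the genes most like *Acta2* in log2 RQ were *Tagln* (0.96), *Gm48529* (0.96), *Plekhf1* (0.91), *Suox* (0.90) and *Tpm2* (0.87) by Pearson's r, and over the 18 libraries of replicates 2 to 4 the same genes had 0.91, 0.91, 0.88, 0.87 and 0.96. *Des* was most like *Ltbp1* (0.94), *Msx2* (0.94), *Gpr176* (0.93), *Gm28818* (0.92) and *Tspan9* (0.92). *Myh11* was most like *Arhgap22* (0.86), *Gm15512* (0.86), *Prkcd* (0.85), *Tgif1* (0.83) and *Mcub* (0.82), and none of the other 8 contractile genes was among its 5. The libraries share days and genotypes, so these values largely follow the group means and are given as descriptions.

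Within groups the likeness depended on replicate 1. In deviations from the 6 group means, *Acta2* had a Pearson's r of 0.95 with *Tagln* over 24 libraries and 0.61 over replicates 2 to 4. With *Cnn1* these were 0.86 and 0.17, and with *Myh11* 0.06 and 0.83. The genes most like *Acta2* in these deviations were *Gm9625* (0.95), *Tagln*, *Gm48529*, *Rps3a2* and *2200002D01Rik*, those most like *Myh11* were *Mis18a* (0.87), *H2-Q7*, *Cks2*, *Cenpw* and *Atp6v1g1*, and those most like *Des* were *Fcna* (0.77), *F13a1*, *Arc*, *Ccdc14* and *Gm30489*. Over replicates 2 to 4 the first of each had 0.78, 0.63 and 0.81.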

How the data were processed

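Each deposited file, as the authors left it, is a table of raw gene counts for a single library, with the length of each gene. The submitters' processing notes name cutadapt 2.5, STAR 2.73a, Subread with featureCounts 1.6.4 and build mm10. Whether reads were assigned by strand, and how those with several matches were treated, is not given in the sources used here. Identifiers with the same version were found for 54587 of 55335 genes in GENCODE M21 (GRCm38), the source of coordinates. All columns were used (0 left out). Within groups, all 36 pairs of libraries differed beyond sampling noise.

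RQ and TPM were computed from these counts. Tests used edgeR 4.0.16 under R 4.3.3: glmQLFit and glmQLFTest on all 24 libraries in 6 groups, filterByExpr with a minimum of 10 counts (20434 genes left), the housekeeping mean in place of the library size, and a threshold of 0.05 on adjusted p. The script was tested on simulated data. Nothing in the labels ties a replicate to an animal or culture, so p-values measure the spread between these samples, which may be technical. The 9 genes and all gene lists were chosen with earlier results of these data known. Further genes were named by rule: housekeeping genes, a fixed set of regulators and relatives, up to 4 called genes of a list and comparison with the largest change and a mean of at least 50 counts, and the 5 most alike genes. *Myod1*, *Myog*, *Ckm*, *Cdh5*, *Emcn*, *Cldn5*, *Tie1*, *Erg*, *Kdr*, *Myh14*, *Higd1b*, *Pdgfrb*, *Cspg4* and overlapping genes were named after their values were seen. A gene that the rule would name is not reported here.

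As a check of pairing, deviations from the group means were correlated between WT and Het libraries of the same day. The 12 correlations of like-numbered libraries were 0.237 to 0.775 (median 0.422), compared with −0.08 (median) for the 36 with unlike numbers. The replicate number was therefore used as a block in an alternative. Of the 36, pairs with replicate 1 had −0.632 to −0.255 and pairs among replicates 2 to 4 had 0.098 to 0.469. With replicates 2 to 4 used alone, the like-numbered median was 0.08. The check thus sets replicate 1 apart, and does not show that like numbers pair libraries. Other alternatives were scaling by TMM, by the size factors of DESeq2 1.42.0, by the total and by parts of the housekeeping set, other filters, DESeq2's Wald test, replicate 1 as a covariate, the compared groups alone, leaving out replicates or libraries, and the exact permutation test. Correlations and summed levels within replicates 2 to 4 were added after seeing the data.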

Additional observations from a re-analysis of the deposited data

Results flagged for a closer look

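In 7 of 54 groups of 4 libraries (9 genes in 6 groups) 1 library was far from the others in RQ by Dixon's criterion at the 95% level, which chance meets in about 1 group in 20. Of the 7, 6 were in libraries of replicate 1, and the cause was not tested. The 54 groups are not independent: *Acta2*, *Tagln*, *Tpm1* and *Des* were all flagged in the same library, Het day 21 replicate 1. *Acta2* was at 4.79 in WT day 8 replicate 1 against 3.57 to 3.77 in the others, and at 4.95 in Het day 21 replicate 1 against 2.96 to 3.19. *Tagln* was at 2.55 in Het day 21 replicate 1, where the others were at 1.38 or lower. *Tpm1* was at 2.05 in WT day 14 replicate 1 (others 1.83 to 1.85) and at 1.74 in Het day 21 replicate 1 (others at 1.62 or lower). *Des* was at 0.00505 in Het day 21 replicate 1 against 0.00183 to 0.00237. The remaining library was Het day 8 replicate 3, with *Tpm2* at 0.891 against 0.762 to 0.768.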

How the results depend on the processing

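The 7 genes called lower from day 8 to day 14 were called lower under all 14 alternatives that kept every library, and the replicate block changed the calls printed beside *Acta2*, *Tagln*, *Myh11* and *Cnn1* above and no other call of the 9. Counts of genes called moved most: 3680 (day 21 against day 14) became 1327 to 6065 with libraries left out. 129 (Het against WT on day 8) became 315 with the replicate block, 391 with replicate 1 as a covariate, 0 with the compared groups alone and 458 with DESeq2 and 0 to 3343 with libraries left out. 704 (Het against WT on day 14) became 1563 with TMM, 1362 with size factors, 1732 with the total count, 352 with no *Sdha* in the scale, 263 with no filter, 1983 with the replicate block, 2371 with replicate 1 as a covariate, 14 with the compared groups alone and 1712 with DESeq2 and 6 to 5658 with libraries left out. 186 (Het against WT on day 21) became 413 with TMM, 509 with size factors, 851 with the total count, 100 with no *Sdha* in the scale, 92 with no filter, 955 with the replicate block, 1282 with replicate 1 as a covariate and 797 with DESeq2 and 4 to 4728 with libraries left out. 3098 (Het against WT over days 14 and 21) became 5005 with the replicate block and 5365 with replicate 1 as a covariate and 86 to 8160 with libraries left out. 35 (the change of the Het effect from day 8) became 67 with the replicate block, 73 with replicate 1 as a covariate and 92 with DESeq2 and 0 to 917 with libraries left out. 0 (the change of the Het effect from day 14 to day 21) became 0 to 13 with libraries left out. Of the 9 genes, the number called moved as follows: 7 (day 14 against day 8) became 8 with the total count and 4 to 7 with libraries left out. 3 (day 21 against day 14) became 5 with the replicate block, 5 with replicate 1 as a covariate and 2 with the compared groups alone and 2 to 4 with libraries left out. 0 (Het against WT on day 8) became 0 to 2 with libraries left out. 0 (Het against WT on day 14) became 1 with TMM, 1 with size factors, 2 with the total count, 1 with replicate 1 as a covariate and 1 with DESeq2 and 0 to 4 with libraries left out. 0 (Het against WT on day 21) became 1 with size factors, 1 with the total count, 1 with the replicate block, 1 with replicate 1 as a covariate and 1 with DESeq2 and 0 to 3 with libraries left out. 2 (Het against WT over days 14 and 21) became 3 with TMM, 3 with size factors, 3 with the total count, 3 with the replicate block, 3 with replicate 1 as a covariate and 1 with the compared groups alone and 0 to 3 with libraries left out. Log2 fold changes that did not pass changed sign as follows, with *Myl9* called lower with the total count at the first step. *Myl9*, day 14 against day 8, 0.0463 became −0.0741 with TMM, −0.0807 with size factors, −0.24 with the total count and −0.0083 with *Mrfap1* and *Sdha* alone. *Myh11*, day 14 against day 8, 0.0662 became −0.0483 with TMM, −0.0544 with size factors, −0.22 with the total count and −0.10 to 0.23 with libraries left out. *Actg2*, day 21 against day 14, 0.0084 became −0.0150 with TMM, −0.0313 with size factors, −0.0287 with the total count, −0.0177 with no *Mrfap1*, −0.0021 with the replicate block and −0.20 to 0.35 with libraries left out. *Des*, day 21 against day 14, 0.17 became −0.0204 to 0.26 with libraries left out. *Cnn1*, Het against WT on day 8, 0.0494 became −0.0216 to 0.18 with libraries left out. *Tpm1*, Het against WT on day 14, 0.0222 became −0.0051 to 0.0629 with libraries left out. *Acta2*, Het against WT on day 21, −0.0150 became 0.0070 with size factors, 0.0434 with the total count, 0.0002 with *Mrfap1* and *Sdha* alone and −0.22 to 0.14 with libraries left out. *Tagln*, Het against WT on day 21, 0.11 became −0.21 to 0.42 with libraries left out. *Myl9*, Het against WT on day 21, −0.0576 became 0.0016 with the total count and −0.23 to 0.0473 with libraries left out. *Tpm2*, Het against WT on day 21, −0.0159 became 0.0005 with TMM, 0.0151 with size factors, 0.0517 with the total count, 0.0020 with *Mrfap1* and *Sdha* alone, 0.0004 with no *Actb* and −0.11 to 0.0812 with libraries left out. *Des*, Het against WT on day 21, 0.15 became −0.24 to 0.33 with libraries left out. *Acta2*, Het against WT over days 14 and 21, 0.0607 became −0.0404 to 0.14 with libraries left out. *Myl9*, Het against WT over days 14 and 21, 0.0473 became −0.0400 to 0.0998 with libraries left out. With all libraries kept, 722 values of single genes kept direction and call, 20 gained a call and 2 lost one. With libraries left out these were 786, 16 and 27. The causes were not tested. A fit of the compared groups alone could not be made for the change of the Het effect from day 8, which uses all groups. Counts were lowest, and counting error largest, for *Des* on days 14 and 21 (25 to 94 counts) and *Myh11* (79 to 848).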
